A study of Ovis aries with 16 samples.

Results

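The miR-379 to miR-656 cluster is a long run of microRNA (miRNA) genes in the imprinted DLK1-DIO3 region. Its members were taken by name: every miRNA row whose number belongs to the cluster, whatever its letter or copy suffix, which gave 45 of the 105 miRNA rows. Of the 39 numbers in that rule, 3 had no row here (MIR300, MIR656 and MIR889). All 45 members were found in the RefSeq gene table for sheep, where they follow one another from MIR379 to MIR323C with 1 further miRNA, MIR323B, among them. The rule used names only, though it was set with earlier results of these data known.

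Small RNA was sequenced from liver and from a thigh muscle, the vastus lateralis, of 8 female Suffolk sheep aged 21 months, which gave 16 libraries. The mothers of 4 animals (902, 908, 924 and 928, the controls) were given corn oil. The mothers of the other 4 (910, 918, 977 and 984) received bisphenol A (BPA), which is used to make polycarbonate plastic and can activate oestrogen receptors. The dose was 0.5 mg per kg, injected each day from day 30 to day 90 of pregnancy. The offspring of both groups had themselves received 2 injections of prostaglandin F2a, 11 days apart, and were sampled 24 hours after the last of them, following a 48 hour fast. Each animal gave 1 liver and 1 muscle library, so each of the 4 groups (control liver, BPA liver, control muscle, BPA muscle) holds 4 libraries. Exposure was before birth only, so a difference between groups is one seen in adult tissue long after the last dose.

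The cluster is imprinted: in mammals its miRNAs are expressed from the maternally inherited chromosome and are cut from long shared transcripts, while the neighbouring DLK1 and DIO3 genes are expressed from the paternal copy. In sheep the same region holds the callipyge mutation, which causes muscle overgrowth, and the cluster is best known for expression in embryo, placenta, brain and growing muscle. Members made from a shared transcript can still end at different levels, because each hairpin is cut and each mature miRNA is degraded at its own rate.

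Most members were rare in both adult tissues. Of the 45, 1 (MIR1193) had no read in any library, 7 others had 1 to 9 reads over all 16 libraries, and 16 had a read in every library. A read was seen in every liver for 20 members and in every muscle for 19. Reads on cluster members numbered 471 to 1214 per control liver, 2950 to 7034 per BPA liver, 290 to 343 per control muscle and 464 to 644 per BPA muscle. A member at 0 in a control liver was therefore below what that depth could detect: in those libraries 1 read was worth 1.48 to 3.498 units of the deposited normalised count, against 0.265 to 0.594 in the BPA livers. Members whose mean was at least 5 across the libraries fitted were tested, which left 22 in liver, 16 in muscle and 19 over both tissues. A member such as MIR655 entered the comparison of tissues through its liver values alone. The hairpins of MIR376A to MIR376E, and the lettered copies of MIR154, MIR323, MIR329, MIR411 and MIR487, resemble one another, so reads may be shared or split between copies, and values of any 1 copy are uncertain.

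Facts of the libraries may bear on every result on the cluster. The labels' library codes are largely confounded with treatment: control liver 902 has code 65 and the other 3 control livers have codes above that of every BPA library, BPA livers have 71, 72, 95 and 96, control muscles 73 to 76 and BPA muscles 77 to 79 and 97. The control livers had 94393 to 240815 miRNA reads and 12.4 to 41.2 small nuclear RNA reads per 100 miRNA reads, whereas the BPA livers had 578150 to 1383538 miRNA reads and 0.137 to 0.279. Muscle libraries had 471691 to 1044886 miRNA reads and 0.180 to 0.756 small nuclear RNA reads per 100 miRNA reads. The part of these differences in the results below was not tested. Of the tissue markers, the muscle-specific MIR133 was at 115 to 717 in liver and 244661 to 373488 in muscle, and the sum of the hepatocyte-associated MIR148A and MIR194 was 40787 to 66109 in liver and 1311 to 2028 in muscle. Other hepatocyte and muscle markers that were listed, MIR122 and MIR1 among them, had no row and are not analysed here. Among markers of other cell types, the sum of the epithelial MIR200A, MIR200B and MIR200C (3 of 5 listed) was 482 to 1367 in control livers and 1504 to 1965 in BPA livers, without overlap. The leukocyte marker MIR150 (1 of 5 listed) was at 199 to 549 in liver and 1368 to 2760 in muscle, and the fibroblast-associated MIR143, MIR21 and MIR199A (3 of 6 listed) summed to 31099 to 59470 in liver and 8728 to 29143 in muscle, on each tissue's own scale. The part of these cells in the results was not tested.

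A few members made up most of the cluster's reads. In liver, MIR379, MIR411A, MIR409, MIR494 and MIR3958 had the highest mean values and together held 62.0% to 71.5% of the cluster's reads. In muscle the leading members were MIR379, MIR409, MIR543, MIR382 and MIR411A, with 51.0% to 56.1%. A read spans a whole mature miRNA, so values were compared between members without a correction for length. MIR379, the first hairpin of the cluster, led in 15 of the 16 libraries: it held 22.7% to 35.6% of the cluster's reads per liver and 13.6% to 28.1% per muscle. The exception was the BPA muscle of animal 984, where MIR543 (16.4%) and MIR409 (14.7%) stood above it.

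**Figure D1:**
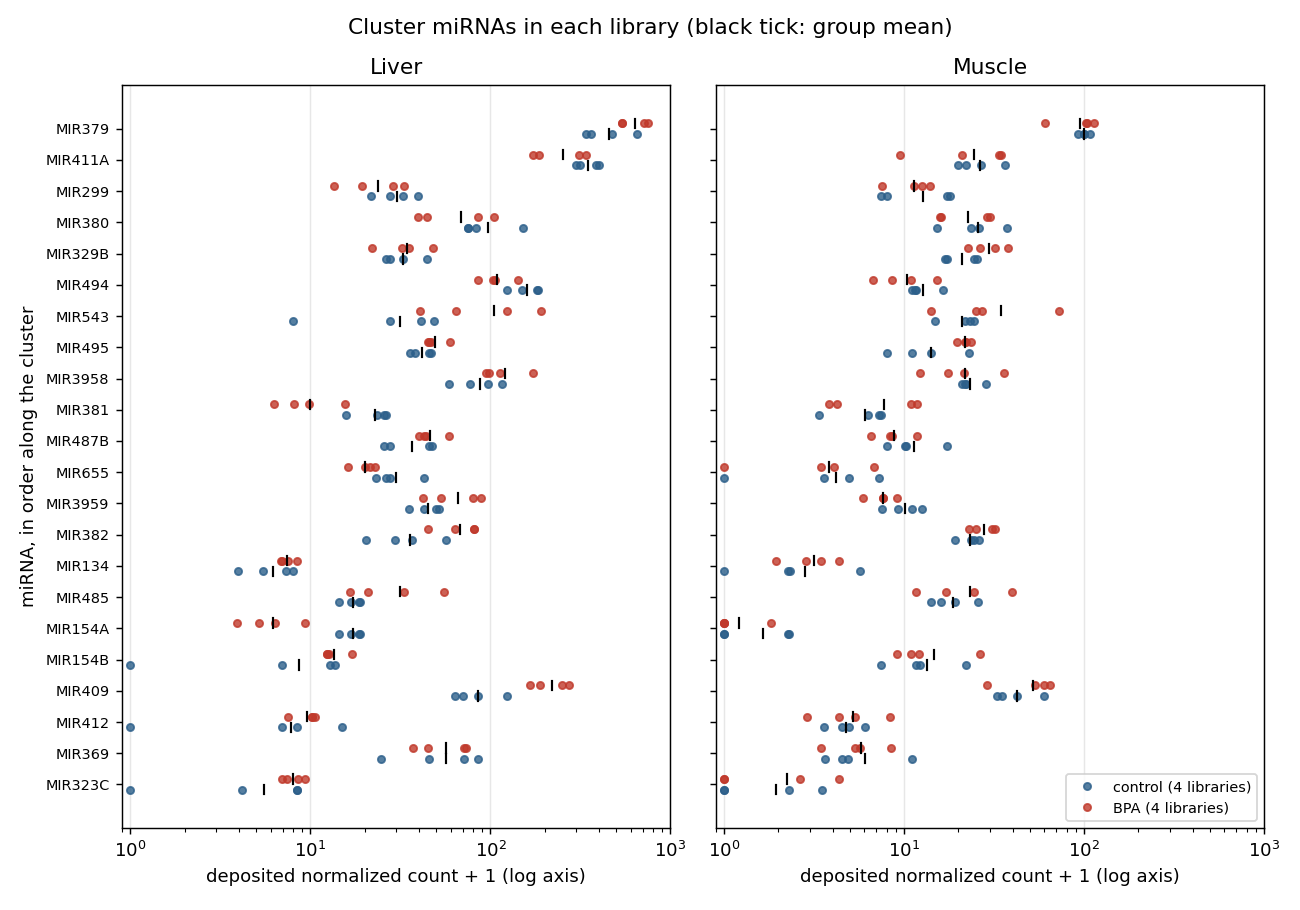
Deposited normalised counts (plus 1, log axis) of the 22 members tested in liver, in order along the cluster, in each library of liver (left) and muscle (right); blue points are control, red points BPA, and black ticks are group means. MIR379 is highest in both tissues, with group means of 455 and 633 in liver and 99.4 and 94.0 in muscle, and in liver MIR409 is the member whose BPA points all lie to the right of the control points.

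The first comparison asked whether prenatal BPA was followed by different levels of these miRNAs in adult liver. Of the 22 members tested, 1 was higher (MIR409) and 2 were lower (MIR154A and MIR381) in BPA livers by limma with Benjamini-Hochberg adjustment over all 78 miRNAs tested, at a threshold of 0.05. Over all 78, 5 miRNAs (6.41%) were higher and 4 (5.13%) lower, so 1 of 22 and 2 of 22 are near the background. The differences, log2(value + 1) in BPA minus control, were above 0 for 15 members and below 0 for 7, with a median of 0.35. Over all 78 miRNAs, 44 were above 0 and 34 below, with a median of 0.05. With the range of library codes as a covariate, which compares control 902 with BPA 977 and 984, the medians were -0.06 for members and -0.01 for all. In bulk tissue, fewer cells of a type and less RNA per cell cannot be told apart, here and in every comparison that follows.

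MIR409 lies near the far end of the cluster, between MIR3957 and MIR412. Its normalised count in the 4 control livers was 84.0, 62.2, 122 and 69.7, and in the 4 BPA livers 272, 247, 188 and 165. The groups did not overlap, and the highest values were in BPA animals 910 and 918. The difference was 1.38 ± 0.30 (log2, SE), a 2.59-fold rise (limma adjusted p = 0.0093).

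MIR154A, 1 of the pair of MIR154 hairpins in the table, fell. It was at 17.5, 13.3, 17.9 and 15.8 in control livers and at 2.92, 4.16, 8.27 and 5.38 in BPA livers, again with no overlap. The difference was -1.53 ± 0.35 (log2, SE; limma adjusted p = 0.0124). These values rest on few reads: 5, 9, 12 and 5 in the controls and 11, 7, 17 and 10 in the BPA livers, so the raw reads of the groups overlapped and the fall appeared after scaling to library size. MIR485, a neighbouring member, had exactly the same 5, 9, 12 and 5 reads in the 4 control livers as MIR154A but 203, 54, 41 and 29 in the BPA livers. What links the 2 rows in the control livers was not tested. The other copy, MIR154B, had a difference of 1.18 ± 0.68 in liver, which did not pass (limma adjusted p = 0.289), with a value of 0 in control 902.

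MIR381, in the middle of the cluster, was at 24.5, 14.8, 22.3 and 25.4 in control livers and at 5.31, 7.13, 8.76 and 14.5 in BPA livers. The lowest control lay just above the highest BPA animal, 984. It fell by 1.25 ± 0.36 on the log2 scale (limma adjusted p = 0.0417), and did not pass DESeq2 (adjusted p = 0.0691). Over the alternative settings that tested them, MIR381 passed in 8 of 20, MIR154A in 16 of 20 and MIR409 in 19 of 21.

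Among members that did not pass, MIR543 had the largest difference, 1.79 ± 0.58 (log2, SE; limma adjusted p = 0.0582). Its values spread widely: 6.996, 26.7, 40.2 and 47.5 in controls and 190, 123, 63.8 and 39.8 in BPA livers, so the groups overlapped. It passed edgeR and DESeq2 on the recovered reads (adjusted p of 0.0240 and 0.0107). MIR382 was at 56.0, 35.5, 19.4 and 28.5 in controls and 79.9, 79.6, 62.3 and 44.1 with BPA, a difference of 0.97 ± 0.36 (limma adjusted p = 0.0914). MIR494, which in other systems has been reported to target a mitochondrial transcription factor, was at 122, 148, 183 and 181 in controls and 84.4, 103, 106 and 141 with BPA, a difference of -0.55 ± 0.27 (limma adjusted p = 0.253). The 2 most abundant members had opposite signs and overlapping groups: MIR379 was at 647, 361, 474 and 339 in controls and 534, 537, 708 and 752 with BPA (0.50 ± 0.27, limma adjusted p = 0.263), and MIR411A at 402, 312, 384 and 298 against 171, 186, 309 and 340 (-0.52 ± 0.29, limma adjusted p = 0.274). Groups failed to overlap for 1 member above and 3 below (MIR154A, MIR381 and MIR655), 4 of 22, against 13 of 78 (16.7%) for all miRNAs.

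The 3 liver calls were lost without the BPA livers with codes 95 and 96, animals 910 and 918, which leaves 4 libraries against 2. In that fit, chosen after seeing the data, none of the members passed: MIR409 was at 1.10 (limma adjusted p = 0.109), MIR154A at -1.15 (adjusted p = 0.243) and MIR381 at -0.86 (adjusted p = 0.296), and 3 of all miRNAs were called. Leaving out the other pair of BPA livers, codes 71 and 72 (animals 977 and 984), also 4 against 2 and chosen after seeing the data, kept all 3, with MIR409 at 1.65 (limma adjusted p = 0.0068), MIR154A at -1.92 (adjusted p = 0.0093) and MIR381 at -1.64 (adjusted p = 0.0136). That fit called 8 of 22 members and 19 of 78 miRNAs. With the range of library codes as a covariate, which compares control 902 with BPA 977 and 984, the same 3 were at 1.06 (limma adjusted p = 0.0973), -1.27 (adjusted p = 0.0625) and -1.05 (adjusted p = 0.149). In that fit MIR543 (2.68), MIR154B (3.64) and MIR323C (3.15) passed instead, and each rests on a value of 6.996, 0 and 0 in 1 library, control 902. Within codes up to 79, 16 of the 22 members had the sign seen over all livers, of which these libraries are a part. The scaling also changed the calls and the medians. With 1 size factor per library computed over all 4 deposited tables, small nuclear RNA included, 17 of 24 members were higher and 0 lower. For all miRNAs it was 68 of 82 and 0, and the medians were 1.76 for members and 1.51 for all. In that setting MIR409 was at 2.83, MIR154A at -0.22 and MIR381 at 0.12.

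**Figure D2:**
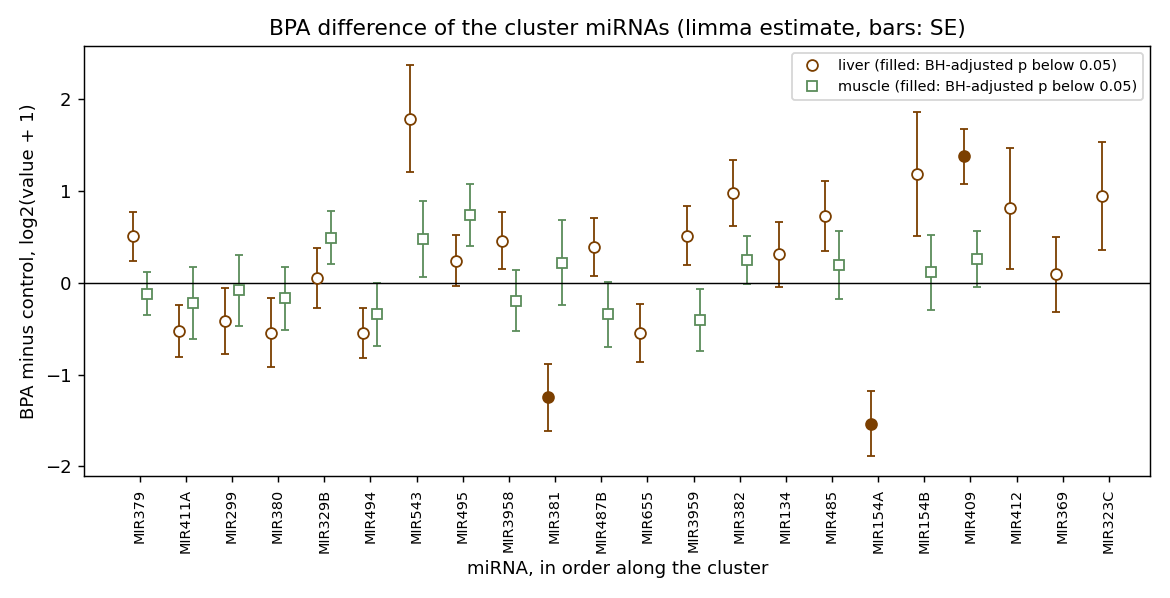
BPA minus control difference, log2(value + 1), of each tested member in order along the cluster, from limma in liver (brown circles, 22 members) and muscle (green squares, 16 members); bars are standard errors and filled symbols have an adjusted p below 0.05. The filled points are MIR409 at 1.38, MIR381 at -1.25 and MIR154A at -1.53 in liver, with none in muscle.

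In muscle the same question had a different count. None of the 16 members tested passed limma, edgeR or DESeq2, and over all 70 miRNAs tested 0 (0%) passed limma. At an unadjusted limma p under 0.05 there was 1 member, MIR495, and 3 miRNAs in all. MIR495 was at 10.1, 7.05, 13.1 and 22.0 in control muscles and at 20.8, 21.0, 18.8 and 22.6 in BPA muscles, so that control 928 lay among the BPA values. Its difference was 0.74 ± 0.34 (log2, SE; limma adjusted p = 0.706). Member differences ran from -0.41 to 0.74 with a median of 0.02, beside 0.01 for all 70. No member's groups were free of overlap, whereas 5 of all 70 (7.14%) were. The next smallest p-values belonged to MIR329B (0.49 ± 0.29) and, below 0, MIR3959 (-0.41 ± 0.34), with limma adjusted p of 0.714 and 0.841.

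MIR409, higher in BPA liver, was at 59.1, 31.7, 34.2 and 41.4 in control muscles and 59.1, 27.8, 52.2 and 64.0 in BPA muscles, and the groups overlapped fully. MIR381 was at 6.29, 2.35, 5.26 and 6.46 against 10.8, 9.88, 3.26 and 2.82. MIR154A had at most 1 read in any muscle library and was not tested there. The BPA muscle of animal 984, code 97, stood apart for several members: MIR379 was at 59.2 there and 102 to 112 in the other BPA muscles, MIR411A at 8.46 against 19.97 to 33.4, and MIR543 at 71.5 against 13.0 to 25.9. Without that library 0 members were called as well.

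Within the BPA group, differences between ranges of library codes were alike in the 2 tissues. What the codes stand for is not given. Within each tissue, code and animal cannot be told apart, and the muscle side rests on 1 library with code 97. In liver, codes 95 and 96 (animals 910 and 918) were compared with codes 71 and 72, and in muscle code 97 (animal 984) with codes 77 to 79; no library enters both differences. Across the 16 members tested in both tissues, the liver and muscle differences had Pearson's r of 0.82 and Spearman's rho of 0.79, and 14 of the 16 had the same sign. Across the 54 other miRNAs r was 0.75 and rho 0.78, and 42 had the same sign, so the pattern is not particular to the cluster. These are descriptions across miRNAs that share libraries, in which miRNAs are not independent replicates. MIR543 was higher in the 95 to 97 codes by 1.58 in liver and 1.77 in muscle, and MIR485 by 1.19 and 1.229 (log2). MIR411A was at -0.85 and -1.61 and MIR381 at -0.78 and -1.10. Of the members called in liver, MIR409 was at 0.56 and 0.52, the direction of its BPA difference, as was MIR381.

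**Figure D3:**
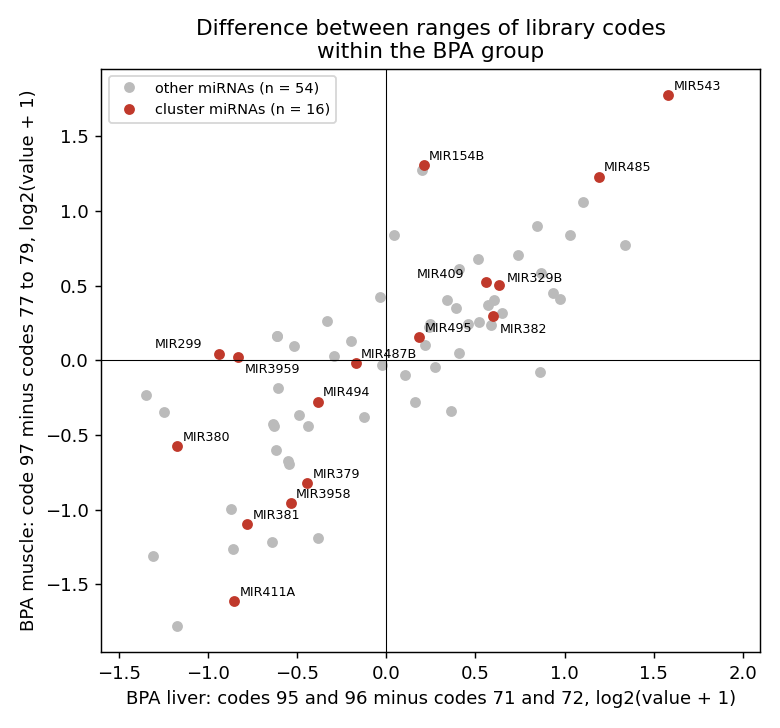
Each point is a miRNA tested in both tissues (red, 16 cluster members; grey, 54 other miRNAs); the horizontal axis is the log2(value + 1) difference between BPA livers with codes 95 and 96 and those with codes 71 and 72, and the vertical axis that between the BPA muscle with code 97 and those with codes 77 to 79. The members run from MIR411A at lower left (-0.85, -1.61) to MIR543 at upper right (1.58, 1.77), and members and other miRNAs follow the same course.

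The tissues differed for most of the members tested. Each tissue had been scaled on its own in the deposited values, so reads were recovered and rescaled over all 16 libraries. Muscle was lower than liver for 13 of the 19 members tested and higher for 1, by limma with Benjamini-Hochberg adjustment over 75 miRNAs. Over all 75, 30 (40%) were lower and 27 (36%) higher, beside 68.4% and 5.26% of the members. The median muscle minus liver difference was -0.98 for members and -0.14 for all miRNAs (log2). The scale between tissues is not fixed by the data. Over the same 19 members and 75 miRNAs, the medians on the deposited scale were -1.56 and -0.72, with 15 members lower and 0 higher and 45 of all miRNAs lower and 17 higher. With size factors from miRNAs outside the region the medians were -1.31 and -0.47, with 14 members lower and 0 higher and 37 of all miRNAs lower and 21 higher. The gap between the median of members and that of all 75 was -0.84 in all 3 scalings. A change of size factors moves all miRNAs by nearly the same amount, so this gap could hardly change. MIR655 and MIR412, with rescaled muscle means of 3.73 and 4.96, passed the filter through their liver values, so their directions were fixed by the filter. MIR412 was not called. Without MIR655, 12 of 18 members were lower.

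The largest difference was in MIR411A, the hairpin next to MIR379. Its rescaled normalised count in the 8 livers was at lowest 127.3, at median 256 and at highest 329, and in the 8 muscles 9.97, 27.4 and 44.1. The tissues did not overlap, and the difference was -3.04 ± 0.26 (log2, SE; limma adjusted p = 2.5e-09). MIR494 ran from 62.7 through a median of 108.5 to 148 in liver and from 7.40 through 12.7 to 17.8 in muscle, -3.00 ± 0.20 (limma adjusted p = 6.9e-11). MIR369, close to the far end, ran from 19.8 through 46.3 to 68.7 in liver and from 3.17 through 4.86 to 12.6 in muscle, -2.74 ± 0.31 (limma adjusted p = 1.1e-07). Its muscle values rest on few reads, 2 to 8 per control library and 3 to 9 per BPA library. The fitted ratios of muscle to liver for these 3 members were 0.121, 0.125 and 0.149, and for each of them every muscle library lay below every liver.

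MIR379, the leading member, was lower in muscle by less: 278, 432.4 and 624 in liver (lowest, median, highest) against 69.8, 124 and 137, a difference of -1.87 ± 0.18 (limma adjusted p = 8.8e-09). MIR379 and MIR411A follow each other in the gene table, and their fitted ratios of muscle to liver were 0.274 and 0.121; the difference between them was not tested. MIR3959 (-2.07 ± 0.21), MIR3958 (-1.62 ± 0.23), MIR487B (-1.50 ± 0.22) and MIR495 (-0.85 ± 0.19) also fell, with limma adjusted p from 3.1e-08 to 0.0005. These 4, with MIR411A, MIR494, MIR369 and MIR379, passed the threshold under each of the 22 alternatives. MIR655 (-2.44 ± 0.44), whose direction the filter fixed, was at 0 in 1 library of each muscle group.

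The other 5 calls between tissues depended on a setting. MIR409 (-0.98 ± 0.21) did not pass in control animals alone, and MIR380 (-1.16 ± 0.27) did not pass in BPA animals alone. MIR299 (-0.63 ± 0.27) and MIR381 (-0.70 ± 0.31) had limma adjusted p of 0.0399 and 0.0486. With the animal as a block the limma adjusted p were 0.0609 and 0.0801, which left 12 calls among members and 55 of 75 over all miRNAs. MIR299 passed in 11 of 21 alternatives and MIR381 in 7 of 21. MIR154B was the 1 member higher in muscle: 0, 9.54 and 11.8 in liver (lowest, median, highest) against 7.26, 13.5 and 29.9, a difference of 1.03 ± 0.42 (limma adjusted p = 0.0325). Its tissues overlapped, its lowest liver is control 902, and the call passed in 11 of 21 alternatives. Settings that lost it included the deposited scale (0.53), size factors without the region (0.74) and the removal of animal 902 (0.62). It was also lost in control animals alone and in BPA animals alone.

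The remaining members tested did not pass: MIR329B (0.15 ± 0.20), MIR485 (0.39 ± 0.27), MIR382 (-0.33 ± 0.21), MIR543 (-0.41 ± 0.39) and MIR412 (-0.13 ± 0.41). On the deposited scale MIR329B and MIR485 were at -0.41 and -0.17, so their sign is a matter of scaling. For 8 of the 19 members, MIR655 among them, every muscle library lay below every liver library, and for 0 above. Over all 75 miRNAs, 20 lay wholly below and 21 wholly above, 41 (54.7%) in either direction.

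**Figure D4:**
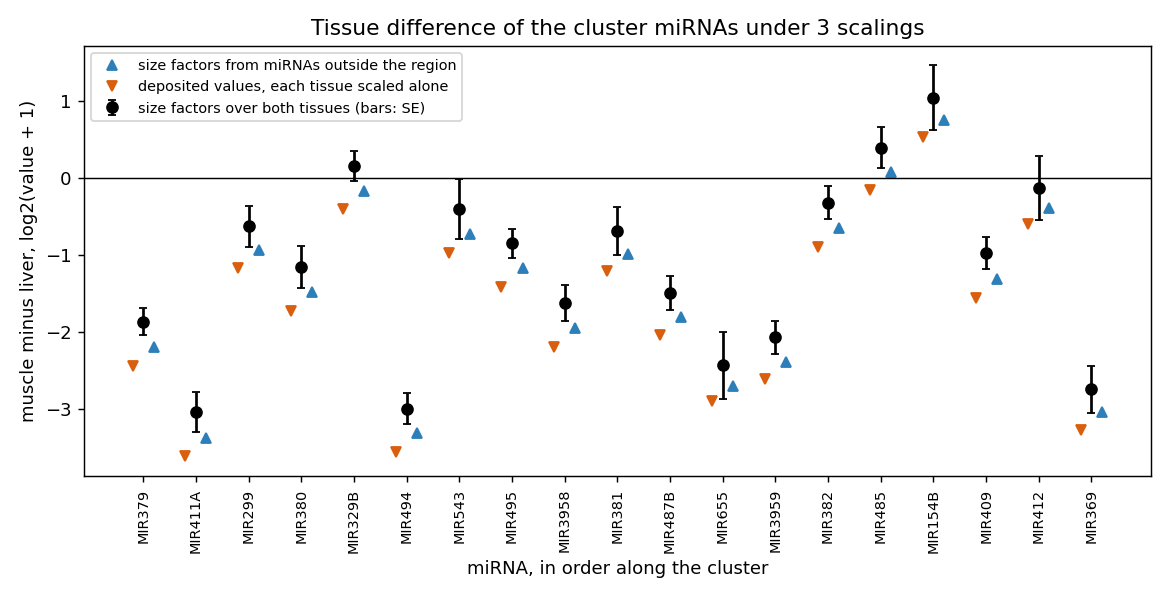
Muscle minus liver difference, log2(value + 1), of the 19 members tested over both tissues, in order along the cluster: black circles with standard error bars use size factors over both tissues, orange triangles the deposited values and blue triangles size factors from miRNAs outside the region. The other scalings shift these 19 members down together, to medians of -1.56 and -1.31 from -0.98, and keep MIR411A, MIR494 and MIR369 lowest. A change of size factors moves all members by nearly the same amount, so their order could hardly change.

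Listed markers without a row, MIR122 and MIR1 among them, are outside the totals used here. As a share of the reads on the 105 miRNA rows the cluster was smaller in muscle. It took 0.610%, 0.385%, 0.544% and 0.386% of the miRNA reads in control livers and 0.508%, 0.510%, 0.643% and 0.612% in BPA livers. In control muscles it took 0.0715%, 0.0566%, 0.0586% and 0.0644%, and in BPA muscles 0.0881%, 0.0616%, 0.0669% and 0.0777%. Tissues did not overlap, and treatments did within each tissue. The ratio of the mean share in muscle to that in liver was 0.130. MIR133 alone took 43.6% to 57.4% of the miRNA reads in muscle, and the same ratio with MIR133 left out of the total was 0.274. The ratio of the summed values was 0.225 on the deposited scale and 0.338 after rescaling.

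The make-up of the cluster's reads, a measure that needs no scale between tissues or libraries, differed between liver and muscle for several members. MIR411A held 9.18% to 22.8% of the cluster's reads per liver and 1.94% to 8.39% per muscle, and MIR494 4.52% to 12.1% against 1.41% to 3.95%. MIR329B, whose relatives are known to be induced by neuronal activity, held 0.992% to 2.52% in liver and 3.79% to 8.41% in muscle. MIR154B held 0% to 0.853% in liver and 1.64% to 5.82% in muscle. For these 4 of the 45 members no liver overlapped with a muscle library, nor for MIR382, at 1.07% to 4.54% against 4.61% to 7.11%. On rescaled values, 41 of all 75 miRNAs tested (54.7%) likewise had no overlap between tissues. Shares within a library add to a fixed total, so a fall in some members raises the share of others. MIR379 overlapped, at 22.7% to 35.6% against 13.6% to 28.1%, as did MIR409, at 4.17% to 14.6% against 6.99% to 14.7%.

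By place, the 15 members from MIR379 to MIR3958 held 67.4% to 78.7% of the cluster's reads in liver and 56.7% to 69.7% in muscle. The last 15, from MIR382 to MIR323C, held 12.8% to 26.8% in liver and 23.8% to 38.8% in muscle, and the middle 15 held 5.81% to 11.5% and 4.53% to 9.62%. The ranges of all these runs overlapped between tissues. The median tissue differences of the members tested in the first, middle and last runs were -1.16 (9 members), -1.78 (4 members) and -0.23 (6 members). The middle run includes MIR655 (-2.44) and the last run MIR412 (-0.13), whose directions the filter fixed. The other tested members of the middle run were MIR381 (-0.70), MIR487B (-1.50) and MIR3959 (-2.07). In BPA against control liver the medians of these runs, in the same order, were 0.05 (9 members), -0.08 (4 members) and 0.81 (9 members). Over all 78 miRNAs the median was 0.05. The 0.81 is the value of MIR412, which was at 0 in control liver 928. MIR154B and MIR323C, in the same run, were at 0 in control liver 902. With DESeq2 on recovered reads MIR412 was at 0.36, MIR154B at 0.65 and MIR323C at 0.43. A difference by place was not tested.

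**Figure D5:**
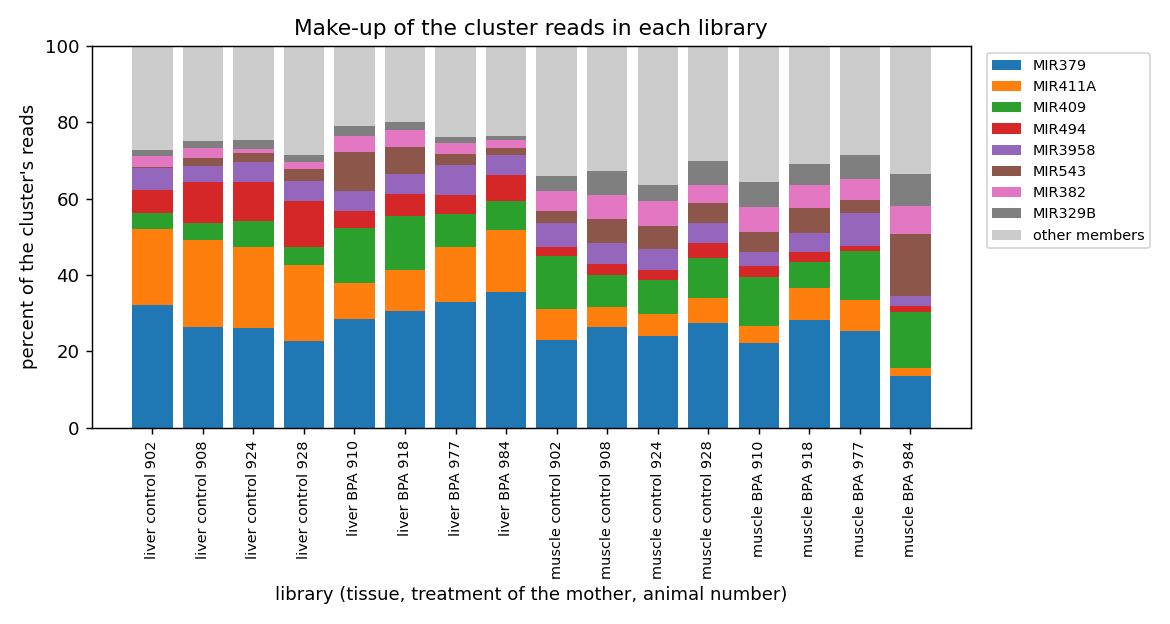
Percent of the cluster's reads held by 8 named members and by all other members together (grey) in each of the 16 libraries, which are labelled by tissue, treatment and animal number. MIR411A (orange) takes 9.18% to 22.8% in the 8 livers and 1.94% to 8.39% in the 8 muscles, and MIR543 (brown) reaches 16.4% in the BPA muscle of animal 984.

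Whether the BPA difference was itself different in muscle and liver was tested as an interaction, (BPA minus control in muscle) minus the same in liver. None of the 19 members passed limma, and 2 of all 75 miRNAs (2.67%) did. At an unadjusted limma p under 0.05 there were 3 of the 19 members and 13 of all 75. The members were MIR409 at -1.07 ± 0.41 (limma adjusted p = 0.262), MIR381 at 1.49 ± 0.62 (adjusted p = 0.262) and MIR3959 at -0.89 ± 0.42 (adjusted p = 0.285). edgeR and DESeq2 called 0 members. The liver calls of MIR409 and MIR381, with none in muscle, therefore do not show a difference between the tissues. Without animal 984 the interaction of MIR381 was 1.99 and passed (limma adjusted p = 0.0488).

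The table holds 8 other miRNAs of the DLK1-DIO3 region, all placed before MIR379 in the gene table: MIR493, MIR665, MIR431, MIR433, MIR127, MIR432, MIR136 and MIR370. They come from the same imprinted region, and several lie antisense to the paternally expressed RTL1 gene, which they are known to silence. In liver 0 of the 6 tested passed BPA against control. MIR136 had the largest difference, from 59.5, 26.7, 26.8 and 38.0 in controls to 9.55, 6.54, 17.0 and 28.5 with BPA (-1.36 ± 0.44, limma adjusted p = 0.0582), with the BPA liver of animal 984 above 2 of the controls. In muscle 0 of 5 passed. Between tissues 3 of the 6 tested were lower in muscle, MIR136 (-2.66 ± 0.33), MIR493 (-0.64 ± 0.16) and MIR127 (-0.54 ± 0.12), and 2 were higher, MIR433 (1.03 ± 0.30) and MIR432 (0.60 ± 0.18), with limma adjusted p from 4.1e-07 to 0.0051. MIR127 was the most abundant miRNA of the region, at 2270 to 3668 in liver and 1106 to 1675 in muscle on each tissue's deposited scale, above MIR379 in all 16 libraries. The interaction was passed by 0 of the 6.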

How the data were processed

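The authors deposited normalised counts (a signal, reads scaled by a library's size factor) for miRNAs and, in other tables, for snoRNAs, snRNAs and lncRNAs. Tools listed in the submitters' processing notes are featureCounts 1.6.1, STAR 2.6.0c and cutadapt 3.2. Genome build, annotation and normalisation tool: not given in the sources used here. All values were whole multiples of 1 step per library (tolerance 0.001), which gave reads. Each row is a hairpin gene, so its arms are not separated.

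Values plus 1 were log2-transformed and tested with limma 3.58.1 (R 4.3.3, mean-variance trend, two-sided) on miRNAs with a mean of at least 5, with Benjamini-Hochberg adjustment over all tested and a threshold of 0.05. Liver and muscle (4 against 4) used deposited values; tissue and interaction used reads over median-of-ratios size factors of 16 libraries. edgeR 4.0.16 and DESeq2 1.42.0 on recovered reads, other scalings, filters, pseudocounts and left-out libraries were alternatives. The limma script was tested on simulated data.

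Replicate numbers pair a liver and a muscle of 1 animal; across 75 miRNAs their deviations from group means correlated by -0.67 to 0.40. No libraries agreed within sampling noise.

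Members and lists were chosen with earlier results of these data known. Named were members called in any comparison, the 3 with the smallest p in each direction per comparison, and the 5 most abundant per tissue; MIR412, MIR323C and, for its reads in control liver, MIR485 were added after their values were seen. Names and order came from RefSeq (ARS-UI_Ramb_v3.0), with no coordinates or sequences used.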

Additional observations from a re-analysis of the deposited data

Results flagged for a closer look

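In each of the 4 groups of 4 libraries, the highest and lowest library of each of 19 named members were compared with the rest by Dixon's ratio (gap to the nearest value over the range). Of the 76 group tests, 7 marked a library, and chance alone marks about 1 in 20. In control 902, MIR380 in liver was at 150.4 (others 74.04 to 82.4), and in muscle MIR369 was at 10.1 (others 2.63 to 3.88) and MIR3958 at 27.7 (others 19.97 to 21.0). In control muscle 928, MIR494 was at 15.5 (others 10.1 to 10.6). In BPA liver 910, MIR154B was at 15.9 (others 11.3 to 11.7) and MIR495 at 58.4 (others 43.8 to 45.7). In BPA muscle 977, MIR154A was at 0.815, which is 1 read, with no read in the others.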

How the results depend on the processing

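The count of members called in liver was 3 as reported (all miRNAs, 9 of 78). It was 17 of 24 with 1 size factor over 4 tables (all miRNAs, 68 of 82). With the spread estimated over all 16 libraries it was 5 (all miRNAs, 15 of 76). It was 0 without library codes 95 to 97 (all miRNAs, 3 of 80) and 8 without codes 71 and 72 (19 of 78). With 1 library left out it ran from 1 without BPA 918 (all miRNAs, 4 of 78) to 5 without BPA 984 (15 of 78). The count of members in the interaction was 0, 17 of 19 with 1 size factor over 4 tables (all miRNAs, 70 of 75), and 0 to 1 with 1 animal left out. The muscle count was 0 and the tissue count of 14 stayed within 1.5 times under each alternative run. The summed level in muscle over liver was 0.130, 0.274 without MIR133, 0.225 deposited and 0.338 rescaled; these alternatives and the removal of libraries by code were chosen after seeing the data. Signs turned in liver for MIR381 (0.12) and MIR494 (0.91) with 1 size factor and for MIR382 (-0.0928) with the code covariate. Between tissues they turned for MIR329B without the region (-0.17), with 1 size factor (-0.0129), deposited (-0.41) and in controls alone (-0.0888), for MIR485 deposited (-0.17) and for MIR381 in BPA animals (0.0478). In the interaction they turned for MIR329B (-1.45), MIR381 (-0.32) and MIR495 (-1.41) with 1 size factor. The cause was not tested. Over the alternatives, the adjusted p in liver (limma, edgeR or DESeq2) was 2.68e-05 to 0.109 for MIR409, 0.00528 to 0.683 for MIR154A and 0.0115 to 0.827 for MIR381.

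With the animal as a replicate block, 12 members were called between tissues (all miRNAs, 55 of 75) and 0 in the interaction. The block changed no other call among members, and over all miRNAs the interaction count went from 2 to 0. Depth limits all groups: 27 to 36 of 45 members had a read in control livers, 35 to 42 in BPA livers, 25 to 28 in control muscles and 25 to 31 in BPA muscles.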
